A study of Mus musculus with 2 samples.

Results

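The phagocyte NADPH oxidase subunits were described here by 5 genes, taken by symbol from the 32285 gene rows that both single-cell matrices list: Cybb, Cyba, Ncf1, Ncf4 and Rac2. Leukocytes of the liver and of the spleen came from female BALB/c mice (strain BALB/cAnNCrl in the labels), 7 to 8 weeks old, in which 4T1-Luc mouse mammary carcinoma cells had been placed in the spleen to seed liver metastases, with part of the spleen then removed. The drug CBL0137, a curaxin that destabilises chromatin, or its vehicle, 5% dextrose, was infused through the hepatic artery, and cells were taken 5 days later. Each library pooled 3 hashtag groups, A0301 for vehicle, A0305 for the low dose and A0310 for the high dose, and every group was 1 sample made of 2 pooled mice. Thus tumour, surgery and infusion were shared by all groups, the spleen was a remnant, and no difference between groups has a replicate behind it. No tests were run for this reason, and the intervals given below are exact 95% intervals that cover counting error only.

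The phagocyte oxidase is an enzyme that moves electrons from NADPH across a membrane onto oxygen, and the superoxide it makes is the start of the respiratory burst. Its catalytic subunit, gp91phox (Cybb), sits in the membrane with p22phox (Cyba), on which its stability depends. In a resting cell subunits that include p47phox (Ncf1) and p40phox (Ncf4) wait in the cytosol with a Rac GTPase, mainly Rac2 in neutrophils, and all move to the membrane when the cell is triggered. Neutrophils, monocytes and macrophages use the enzyme against microbes, and B cells carry it at a lower level. Loss of a subunit other than the Rac GTPase causes chronic granulomatous disease.

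The library labelled liver held 9591 cell barcodes, of which 8435 carried exactly 1 hashtag and were analysed, and the library labelled spleen held 4830, of which 2988 were analysed. Median depth ranged from 4497 to 7930 UMIs (unique molecules counted) per cell over the 6 groups. The labels of the 2 libraries went against their contents: transcripts of liver cell types were the rarer ones in the library labelled liver, where 8 hepatocyte genes summed to 102 UMIs per 1000000 UMIs (CPM), 8 endothelial genes to 38.8 CPM and 5 Kupffer cell genes to 14.8 CPM, against 350.1, 379.7 and 594 CPM in the library labelled spleen. Each library is therefore called by its label only, and no tissue is drawn from it. The libraries shared 15 barcodes, of which 6 were assigned to a group in both and 0 to the same hashtag.

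Cells were clustered with the 5 genes and all other listed oxidase-related genes left out of the variable genes, and clusters were named from marker lists. Neutrophil-like cells numbered 1430 (vehicle), 1289 (low dose) and 199 (high dose) under the liver label and 299, 571 and 113 under the spleen label. The neutrophil markers S100a8 and S100a9 made up 31.0% to 35.0% of the summed UMIs in every one of these 6 groups. Clusters 2 and 3 under the liver label (1008 of the 1430 vehicle cells) and cluster 0 under the spleen label did not have this pair among their raised markers. They were named by others of the list, such as Retnlg, Cxcr2 and Csf3r. Monocyte-like cells numbered 26 to 158 per group, macrophage-like cells 56 to 124 and B cell-like cells 31 to 543.

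All 5 genes are protein coding. In mm10 coordinates Cybb lies at chrX:9435252-9487771, Cyba at chr8:122424776-122432930 and Ncf1 at chr5:134220053-134229625, all on the minus strand. Ncf4 lies at chr15:78244801-78262580 on the plus strand, and Rac2 at chr15:78559167-78572783 on the minus strand of the same chromosome. RefSeq sequences (GRCm38.p6) matched for Cybb, Cyba and Ncf1, so the 250 bases before the RefSeq start of these 3 genes are printed. They read 5′ to 3′ on the gene's strand, for Cybb chrX:9469325-9469574, for Cyba chr8:122432941-122433190 and for Ncf1 chr5:134229626-134229875. For Cybb the RefSeq start lies inside the gene span given above, so the start of that span and the RefSeq start are different positions. The last line gives 30 bases of Cybb around its start (chrX:9469298-9469327), with capitals on a letter match to the core of PU.1 sites. PU.1 is the myeloid factor encoded by Spi1, and the match is shown as it reads on the gene's strand.
Cybb upstream: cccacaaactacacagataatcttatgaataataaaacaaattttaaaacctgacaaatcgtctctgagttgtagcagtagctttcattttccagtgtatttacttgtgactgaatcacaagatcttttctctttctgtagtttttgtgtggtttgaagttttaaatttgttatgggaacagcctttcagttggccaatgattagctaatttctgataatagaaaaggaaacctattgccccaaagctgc
Cyba upstream: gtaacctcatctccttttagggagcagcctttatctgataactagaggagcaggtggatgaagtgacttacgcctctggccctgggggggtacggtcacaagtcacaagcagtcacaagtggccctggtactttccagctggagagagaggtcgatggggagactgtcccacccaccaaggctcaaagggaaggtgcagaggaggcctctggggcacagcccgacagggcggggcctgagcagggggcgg
Ncf1 upstream: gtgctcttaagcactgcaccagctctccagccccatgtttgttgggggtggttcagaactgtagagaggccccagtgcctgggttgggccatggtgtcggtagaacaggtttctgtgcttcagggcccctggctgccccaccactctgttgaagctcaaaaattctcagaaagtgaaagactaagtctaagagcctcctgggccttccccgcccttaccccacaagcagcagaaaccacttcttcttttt
Cybb around its start: tgctgttttcatTTCCTCatcagaagaaga

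The PU.1 core searched was GAGGAA and the C/EBP motif TTGCNNAA, on either strand, in 300 bases from 250 before to 50 after the RefSeq start. Cybb held 1 PU.1 core, on the opposite strand and beginning 9 bases after the start, and no C/EBP match. Cyba and Ncf1 held neither set of letters in this window. Of 32851 promoters of the same length, 28.3% held the PU.1 core and 10.8% the C/EBP motif, so a match is a description of these bases and not a bound site.

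**Figure D1:**
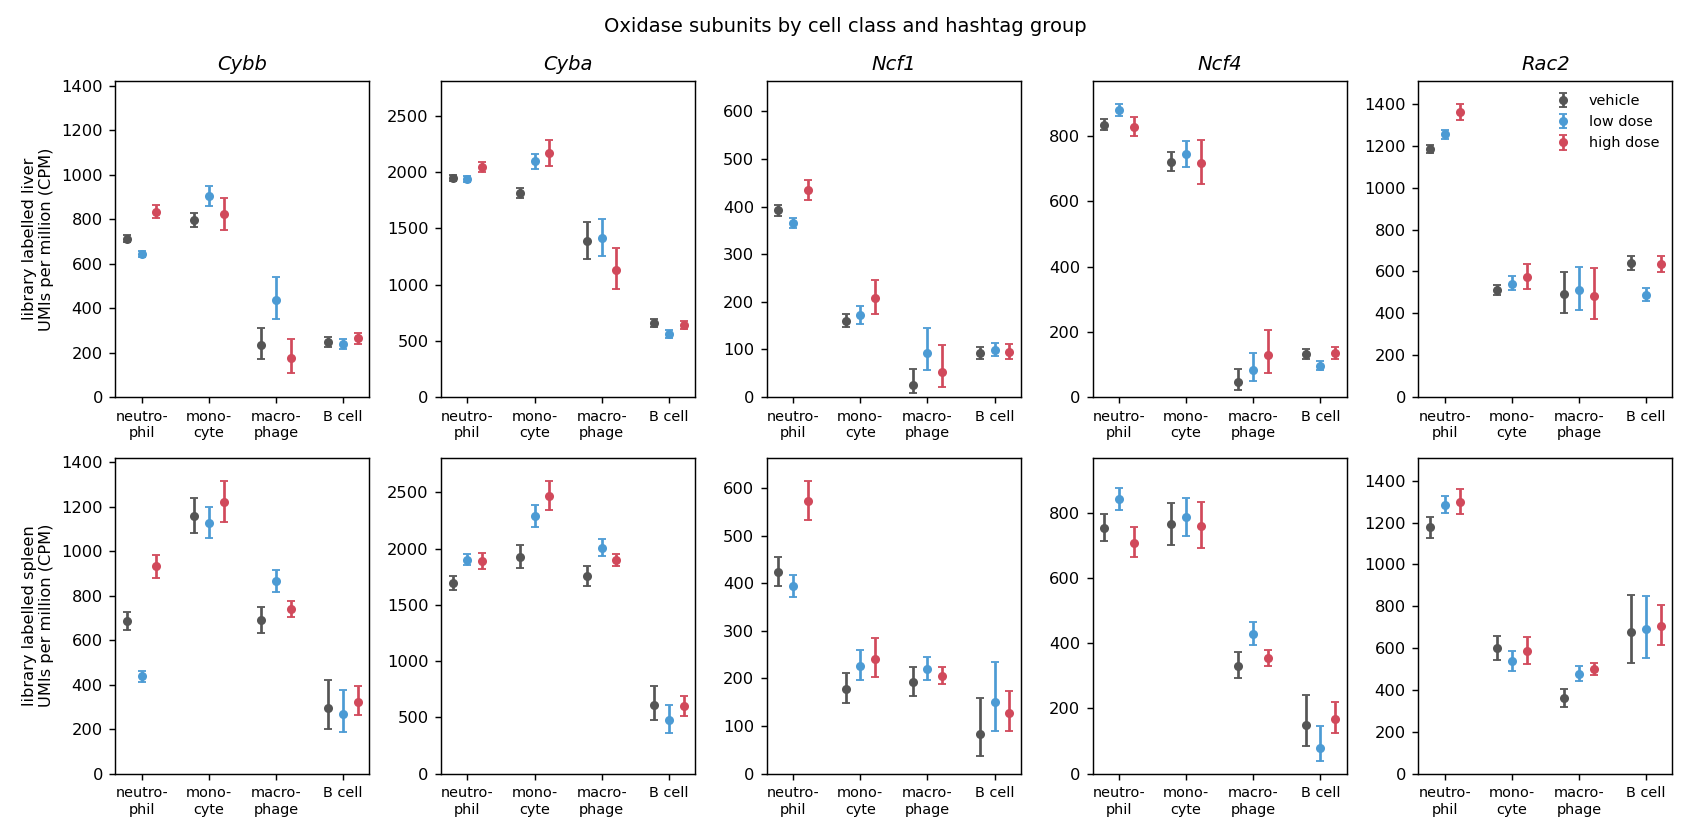
Level (CPM, linear axis from 0) of each of the 5 genes in 4 cell classes, by hashtag group, with the library labelled liver in the upper row and the library labelled spleen in the lower row. Bars are exact Poisson 95% intervals on 1 pooled sample per group, and the neutrophil-like points of Ncf1 and Rac2 lie above those of the other 3 classes in both libraries.

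The catalytic subunit gene Cybb was carried by all 3 myeloid classes and by B cell-like cells. Its level in neutrophil-like cells under the liver label was 712 CPM in vehicle (698 to 728), 642 CPM at the low dose (627 to 657) and 833 CPM at the high dose (805 to 862). Monocyte-like cells held 796, 902 and 821 CPM in the same order, and B cell-like cells 247, 239.5 and 264 CPM. As class sums, the B cell-like groups lay below both of those classes, while neutrophil-like and monocyte-like groups overlapped. Neutrophil-like clusters 2 and 3 lay below the B cell-like levels. Cluster 2 held 53.5 CPM in vehicle, and cluster 3 held 48.2 CPM over all groups. These 2 clusters held 1008 of the 1430 vehicle cells.

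In cells under the spleen label the order for Cybb differed, with monocyte-like cells highest. They held 1158, 1128 and 1222 CPM in the 3 groups, against 686, 437 and 932 CPM in neutrophil-like cells. Macrophage-like cells held 690.3, 865 and 739 CPM, in among the neutrophil-like values, and B cell-like cells held 297, 269 and 323 CPM. The neutrophil-like cluster lowest in Cybb, cluster 0, held 80.1 CPM in vehicle, below the B cell-like level. Clusters 1 and 12 also lay below the B cell-like levels, over all groups. These 3 clusters held 228 of the 299 vehicle cells. The vehicle difference of neutrophil-like minus monocyte-like cells was -0.75 on the log2 scale here and -0.16 under the liver label, and it turned to 0.01 and 0.70 when the totals excluded the 20 most abundant genes, a change of scale that moves every gene of this contrast alike.

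Macrophage-like cells under the liver label stood apart, at 233, 438 and 173 CPM of Cybb, which came from only 47, 89 and 23 UMIs. They also held 5 to 19 UMIs of Ncf1 and 9 to 17 of Ncf4 per group. Their median depth was 866 to 2789 UMIs per cell, and the 8 T cell marker genes summed to 2415 to 3423 CPM in them, against 264 to 429 CPM in the macrophage-like cells of the other library. The part of these T cell transcripts in the macrophage-like levels was not tested.

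The partner of gp91phox, Cyba, varied less between the myeloid classes. Neutrophil-like cells held 1945, 1938 and 2042 CPM under the liver label and 1696, 1903 and 1889 CPM under the spleen label. Monocyte-like cells held 1815 to 2166 and 1926 to 2469 CPM over the groups, so the 2 classes overlapped under the liver label, and monocyte-like cells lay slightly above under the spleen label. B cell-like cells, with 559.8 to 657 and 475 to 612 CPM, lay below every myeloid group.

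In UMIs summed by class, the organiser p47phox (Ncf1) had the largest vehicle excess of neutrophil-like over monocyte-like cells among the members, in both libraries. Against the other classes it did not lead. On the log2 scale, the vehicle excess over B cell-like cells under the liver label was larger for Ncf4, at 2.67. Over macrophage-like cells under the spleen label it was larger for Rac2, at 1.71 against 1.14 for Ncf1. Ncf1 stood at 392, 366 and 435 CPM under the liver label and at 424, 394 and 572 CPM under the spleen label, while monocyte-like cells held 161 to 208 and 178.5 to 241 CPM. No neutrophil-like group overlapped with any monocyte-like, macrophage-like or B cell-like group of either library. The share of all genes that separate the classes in this way is not given here, for Ncf1 or any other member. The classes were drawn from clusters of the same cells, so the lack of overlap is a description. In vehicle the neutrophil-like level was higher than the monocyte-like one by 1.29 (liver label) and 1.25 (spleen label) on the log2 scale, and higher than the B cell-like one by 2.10 and 2.34. The class was not uniform, however. Under the liver label its cluster lowest in Ncf1 (cluster 3, 359 vehicle cells) held 172 CPM in vehicle, within the monocyte-like range. Cluster 2 (649 vehicle cells) also lay within that range over all groups. These 2 clusters held 1008 of the 1430 vehicle cells, so most cells of the class lay in clusters at the monocyte-like level. Under the spleen label the lowest (cluster 0) held 262 CPM, above the monocyte-like levels there. As UMIs per cell, at unequal depth of the classes, the vehicle difference from monocyte-like cells was -0.02 and 0.38.

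The regulatory subunit p40phox, Ncf4, was nearly as high in monocyte-like as in neutrophil-like cells. Its neutrophil-like levels were 835, 879 and 829 CPM under the liver label and 753.5, 842 and 709 CPM under the spleen label. Monocyte-like levels were 717 to 745 and 759.8 to 787 CPM. Macrophage-like cells under the spleen label held 332 to 429 CPM, below both other classes, and B cell-like cells 79.2 to 167 CPM over all 6 groups.

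Rac2, the GTPase of blood cells, was highest in neutrophil-like cells among the 4 classes compared, while B cell-like cells overlapped with monocyte-like and macrophage-like cells under the liver label and lay above them under the spleen label. Neutrophil-like cells held 1183, 1255 and 1361 CPM under the liver label and 1177, 1286 and 1299 CPM under the spleen label. Monocyte-like cells held 513 to 575 and 537 to 599 CPM, macrophage-like cells 482.5 to 511 and 360.0 to 499 CPM, and B cell-like cells 488 to 638 and 677 to 706 CPM. The neutrophil-like excess over B cell-like cells in vehicle was 0.89 and 0.80 on the log2 scale, the smallest of the 5 genes. Its excess over monocyte-like cells, 1.21 and 0.97, came next after that of Ncf1. Outside these classes, T cell-like cells under the spleen label held 962 and 1029.9 CPM of Rac2 in vehicle and at the low dose and 1366 CPM at the high dose, where the interval (1239.8 to 1502) included the neutrophil-like value.

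Some of these class differences depended on how cells were weighted. For Cybb, whose difference between neutrophil-like and B cell-like cells in vehicle was 1.53 under the liver label (interval 1.40 to 1.66), giving each cell equal weight in place of each UMI left 0.28. The sign of the neutrophil-like minus monocyte-like difference in Cyba, 0.10 and -0.18 in the 2 libraries, turned under several other settings, and that in Ncf4 under the liver label, 0.21, turned to -0.10 without ribosomal protein and mitochondrial UMIs.

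**Figure D2:**
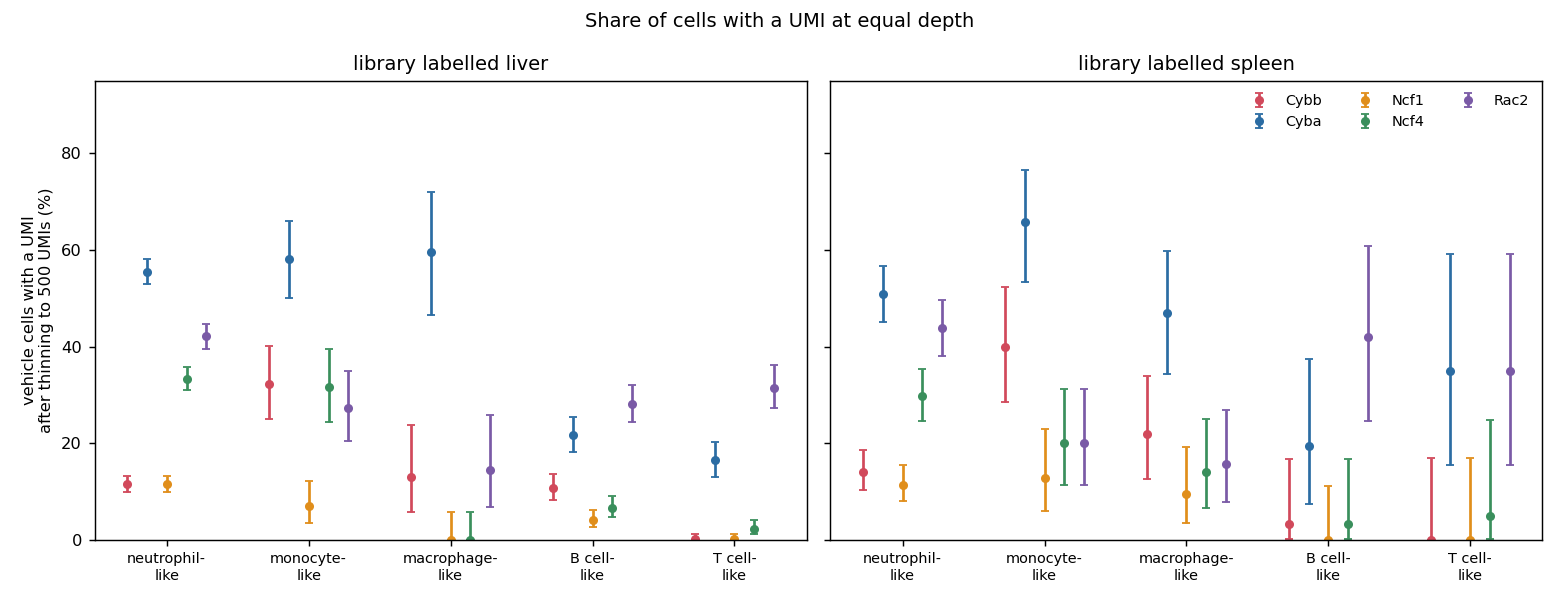
Percentage of vehicle cells with at least 1 UMI of each gene after every cell was thinned to 500 UMIs, by class, in the library labelled liver (left) and the library labelled spleen (right). Bars are exact Clopper-Pearson 95% intervals, and Cybb was seen in 32.3% and 40.0% of monocyte-like cells against 11.5% and 14.0% of neutrophil-like cells.

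Because cells of the classes differed several-fold in depth, each cell was thinned to 500 UMIs to compare the share of cells with a UMI. In vehicle, Cybb was then seen in 11.5% of neutrophil-like cells under the liver label (9.86% to 13.2%) and in 14.0% under the spleen label. Monocyte-like cells showed it in 32.3% (25.1% to 40.2%) and 40.0%, so more of them carried a transcript at equal depth although the summed CPM of the 2 classes lay close together under the liver label. B cell-like cells showed Cybb in 10.6% (8.13% to 13.6%) and T cell-like cells, which should lack it, in 0.228% (0.00578% to 1.27%) under the liver label. The median depths of these B cell-like and T cell-like cells before thinning were 3501 and 4559 UMIs, and S100a8 and S100a9 took 0.154% and 0.130% of their UMIs, respectively. Under the spleen label 1 of 31 B cell-like cells (3.23%) and 0 of 20 T cell-like cells showed Cybb, and 0 of 20 allows a share of cells with a UMI of up to 15.0% (3 counts of 20) or, by the exact interval, 16.8%.

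Neutrophil-like cells were not uniform, and under the liver label the members fell by CPM into a graded and an even set. They formed 5 clusters under the liver label, which ranged from cluster 7, led by the granule genes Ltf, Camp and Ngp, through cluster 9 (led by Prok2, Retnlg and Ly6g) and cluster 6 (led by Stfa3 and Stfa2), to clusters 2 and 3, both with the cytokine gene Il1b among their leading genes. Cybb itself was among the leading 10 genes of cluster 7. The clusters were drawn without the 5 genes, but from the same cells, so their levels are given as a description.

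**Figure D3:**
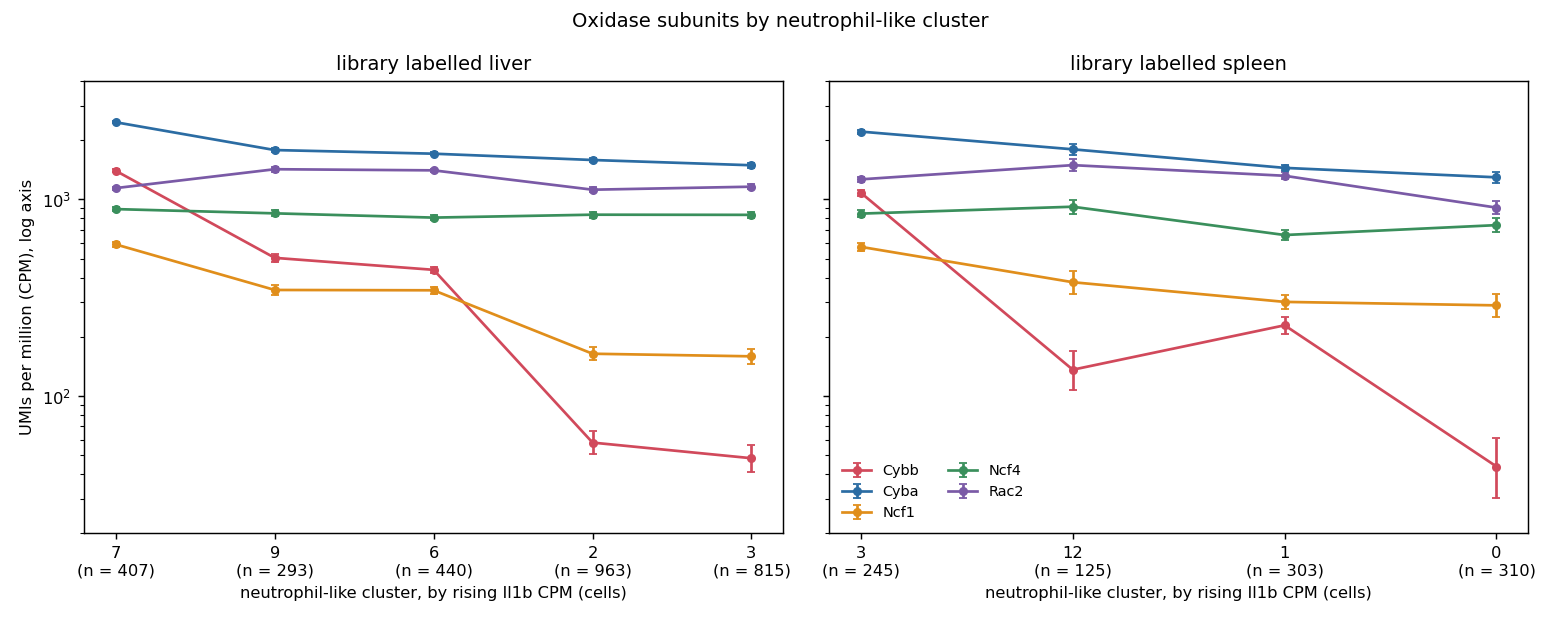
Level (CPM, log axis) of the 5 genes in each neutrophil-like cluster, all groups together, ordered from left to right by rising Il1b, for both libraries, with the number of cells under each cluster. Bars are exact Poisson 95% intervals, and Cybb fell from 1397 to 48.2 CPM across the clusters of the library labelled liver while Ncf4 stayed between 808 and 892 CPM.

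Cybb stood at 1397 CPM in cluster 7 (1374 to 1420), 504 in cluster 9, 438 in cluster 6, 57.9 in cluster 2 and 48.2 in cluster 3 (40.9 to 56.3). The highest value was 29.0 times the lowest (24.8 to 34.1). Ncf1 followed the same order with a smaller range, 589.8 CPM in cluster 7, 346 in cluster 9, 345 in cluster 6, 164 in cluster 2 and 159 in cluster 3, a 3.71-fold span (3.39 to 4.07). Cyba spanned 1.65-fold in the same direction, from 2467 CPM in cluster 7 to 1491 in cluster 3.

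As CPM, Ncf4 and Rac2 were nearly even across the same cells. Median depth differed between these clusters, from 3306 UMIs per cell in cluster 2 to 22941 in cluster 7, so UMIs per cell were not even. Ncf4 ranged from 808 to 892 CPM, a 1.10-fold span, and Rac2 from 1119.9 to 1423 CPM (1.27-fold), highest in cluster 9 rather than cluster 7. Rac1, a related GTPase found in most cell types, ran the other way, at 223 CPM in cluster 7 and 512 CPM in cluster 3. Thus the transcripts of subunits that act in 1 complex did not keep a fixed ratio within neutrophil-like cells.

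Cybb again had the widest span of the 5 members under the spleen label, where 4 clusters were neutrophil-like. Cybb stood at 1079.8 CPM in cluster 3, led by Ly6g and Ltf, at 229 CPM in cluster 1 (Retnlg), at 136 CPM in cluster 12 (led by Bcl2l15 and Orm1) and at 43.7 CPM in cluster 0 (Il1b and Ccrl2), a 24.7-fold span (17.5 to 35.9). Ncf1 spanned 1.98-fold, Cyba 1.71-fold, Rac2 1.65-fold and Ncf4 1.39-fold over these clusters, so Rac2, with a span close to that of Cyba, was not even here. In vehicle cells alone the Cybb span was 26.6-fold under the liver label and 14.8-fold under the spleen label, so the spread was present without drug.

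Granulocyte progenitor-like clusters held values near both ends of this range. Cluster 11 under the liver label, led by the granule protease genes Elane and Prtn3, held Cybb at 1256 CPM over 247 cells, and cluster 10 under the spleen label, led by Cebpe, Fcnb and Camp, held 1226 CPM over 156 cells. Cluster 16 under the liver label, led by Car2, Myb and Cdk6, held 23.8 CPM over 174 cells, and cluster 9 under the spleen label, with Ctsg, Mpo and Myb, 227 CPM over 160 cells. Ncf1 in these 4 clusters was 427.5, 442, 36.6 and 105 CPM in the same order, so clusters low in one gene were low in the other.

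The groups drew their neutrophil-like cells from different clusters. Under the liver label, clusters 2 and 3 held 1008 of 1430 vehicle cells and 758 of 1289 low-dose cells, but 12 of 199 high-dose cells (6.03%), most of which lay in cluster 6 (113) and cluster 7 (53). Under the spleen label, cluster 12 held 120 low-dose cells, 2 vehicle cells and 3 high-dose cells, and cluster 0 held 119, 187 and 4 cells of the 3 groups. Median depth moved with the groups as well, at 4371, 5701 and 18606 UMIs per neutrophil-like cell under the liver label and 3461, 4064 and 11390 under the spleen label.

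Against vehicle, all 5 members were within 1.5-fold at the high dose in neutrophil-like cells of both libraries, when UMIs were summed and expressed as CPM. Under the liver label Cybb was higher by 0.23 on the log2 scale (0.17 to 0.28), Rac2 by 0.20 (0.16 to 0.25), Ncf1 by 0.15 (0.07 to 0.23) and Cyba by 0.07 (0.03 to 0.11), and Ncf4 differed by -0.01 (-0.07 to 0.05). The median of the members was 0.15, and the median of all 7462 genes with at least 50 UMIs was -0.34. Of those genes 2.36% were at least 1.5-fold higher and 31.9% at least 1.5-fold lower, against 0 of 5 members in either direction.

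Cybb and Ncf1 had the largest differences under the spleen label. Cybb was higher by 0.44 (0.33 to 0.56) and Ncf1 by 0.43 (0.29 to 0.58), Cyba by 0.16 (0.08 to 0.23) and Rac2 by 0.14 (0.05 to 0.24), and Ncf4 differed by -0.09 (-0.21 to 0.03). The direction for each of the 5 genes was that of the other library, with the interval of Ncf4 spanning 0 in both. Of 3793 genes tested here, 6.75% were at least 1.5-fold higher and 13.4% at least 1.5-fold lower, and again 0 of 5 members passed in either direction.

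The size for Cybb depended on how cells were counted. With equal weight for each cell it was higher at the high dose by 1.28 under the liver label and by 0.99 under the spleen label, both past 1.5-fold, and Ncf1 by 0.58 and 0.72. With coarser clusters (resolution 0.4) Cybb was higher by 0.64 under the liver label. Compared within clusters and weighted by vehicle cells, the liver-label values were 0.05 for Cybb and -0.05 for Ncf1, but these rest on clusters 6, 7 and 9, since clusters 2 and 3, with 1008 of the 1430 vehicle cells, held too few high-dose cells to be compared. The Cybb difference was -0.10 within cluster 7 (-0.17 to -0.02) and 0.30 within cluster 6 (0.17 to 0.44). In cluster 1 under the spleen label it was higher by 0.98 (0.64 to 1.32), and in cluster 3 it differed by 0.10 (-0.02 to 0.23), so the within-cluster weighted value there was 0.63, without cluster 0 (119 vehicle cells) and cluster 12 (2).

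Per cell, members' UMIs were higher at the high dose by 1.25 to 1.49 on the log2 scale under the liver label and by 0.94 to 1.47 under the spleen label, with the depth per cell given above. At 500 UMIs per cell, Cybb was seen in 11.5% (vehicle), 12.2% (low dose) and 25.6% (high dose) of neutrophil-like cells under the liver label, and in 14.0%, 10.5% and 30.1% under the spleen label. Before thinning the shares were 35.0%, 42.0% and 92.0%, and 41.8%, 33.6% and 86.7%. The share of cells with UMIs of at least 3 members after thinning was 15.8%, 19.3% and 30.7% under the liver label and 15.4%, 17.2% and 26.5% under the spleen label, highest at the high dose in both.

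The low dose, compared with the same vehicle cells, gave a different picture for Cybb. In neutrophil-like cells under the spleen label Cybb was 437 CPM against 686 CPM in vehicle, a log2 difference of -0.65 (-0.76 to -0.53), and it was the only 1 of 5 members past 1.5-fold, where 6.01% of 4707 genes were that much lower and 4.25% that much higher. The difference there was -1.77 within cluster 0, -0.83 within cluster 1 and -0.41 within cluster 3, so each cluster with at least 10 cells in both groups showed the direction. Ncf1 differed by -0.11 (-0.24 to 0.03), and Cyba, Ncf4 and Rac2 were higher by 0.17, 0.16 and 0.13. The 6 erythroid marker genes summed to 6962 CPM in these low-dose cells and to 298 CPM in vehicle, and their part in the result was not tested.

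Under the liver label the low-dose difference for the same gene was smaller. Cybb differed by -0.15 (-0.20 to -0.10) and Ncf1 by -0.10 (-0.16 to -0.04), Cyba by -0.00 (-0.03 to 0.02), Ncf4 by 0.08 and Rac2 by 0.09. None of the 5 passed 1.5-fold, where 1.46% of 8178 genes were higher and 7.13% lower by that much. The Cybb value turned to 0.13 with equal weight for each cell and to 0.04 within clusters, weighted by vehicle cells. By cluster it was 0.37 (-0.04 to 0.77) in cluster 2, which held 649 vehicle cells, and negative in the others. It was -0.34 (-0.81 to 0.13) in cluster 3 and -0.27 (-0.41 to -0.12) in cluster 6. In cluster 7 it was -0.04 (-0.09 to 0.01) and in cluster 9 -0.13 (-0.27 to 0.01).

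**Figure D4:**
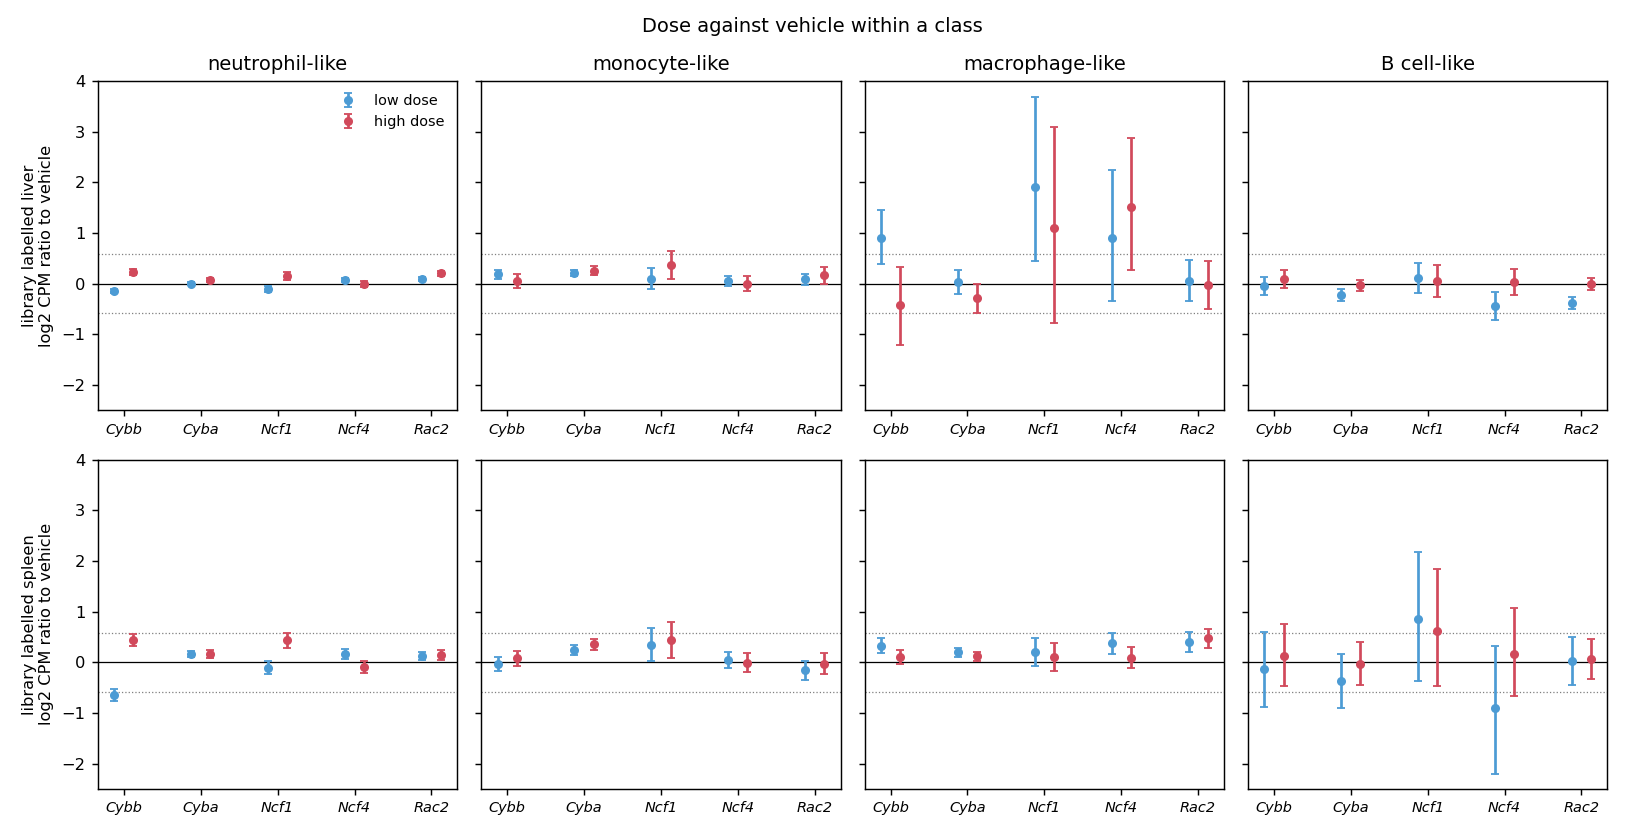
Log2 ratio of CPM, dose to vehicle, of each gene within 4 cell classes, for the library labelled liver (upper row) and the library labelled spleen (lower row), with low dose and high dose as separate points that share 1 vehicle sample. Bars are exact conditional 95% intervals, and in neutrophil-like cells the points lie within 1.5-fold of 0 except Cybb at the low dose under the spleen label (-0.65).

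In monocyte-like cells the membrane partner and the organiser were higher at the high dose in both libraries. Cyba was higher by 0.26 (0.17 to 0.34) under the liver label and by 0.36 (0.25 to 0.47) under the spleen label, and Ncf1 by 0.37 (0.08 to 0.65) and 0.43 (0.08 to 0.79). Cybb differed by 0.05 and 0.08 and Ncf4 by -0.01 and -0.01, with intervals that spanned 0. No member passed 1.5-fold at the high dose, against 21.0% of 6712 and 15.4% of 3462 genes that did so in one direction or the other. At the low dose Cyba was higher too, by 0.21 (0.15 to 0.26) and 0.25 (0.15 to 0.35). Ncf1 differed at that dose by 0.10 (-0.11 to 0.30) under the liver label and by 0.34 (0.02 to 0.67) under the spleen label. The neutrophil marker genes summed to 11483 CPM in vehicle and 32425 CPM at the high dose in the monocyte-like cells under the liver label, and to 18928 and 20972 CPM under the spleen label, and the part of these transcripts in the Ncf1 values was not tested.

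Macrophage-like cells did not share a direction. Under the spleen label Rac2 was higher at the high dose by 0.47 (0.28 to 0.66) and Cyba by 0.11 (0.03 to 0.20), while Cybb, Ncf1 and Ncf4 differed by 0.09 to 0.10 with intervals spanning 0. Rac2 was also higher at the low dose there, by 0.40 (0.21 to 0.61). The neutrophil markers summed to 1064 CPM in vehicle, 5851 CPM at the low dose and 6469.7 CPM at the high dose in these cells. In the same order the NK cell markers summed to 134, 64.9 and 388 CPM, and the part of either list in the Rac2 values was not tested. The cells came from cluster 4, led by Arg1 and Ccl8 (56 vehicle and 84 high-dose cells), and cluster 14, led by Marco and Clec4f (8 and 40). Under the liver label only Cybb, Cyba and Rac2 had 50 UMIs, and Cyba differed by -0.29 (-0.59 to -0.00). None of the members with 50 UMIs passed 1.5-fold at the high dose, against 15.8% of 6524 genes under the spleen label and 24.7% of 854 under the liver label. At the low dose Cybb was 0.91 higher (0.38 to 1.45) under the liver label, from 89 against 47 UMIs, in cells whose summed neutrophil markers were 6978 CPM against 1728 CPM in vehicle. This Cybb ratio was past 1.5-fold, and 94.9% of 1156 genes had a lower ratio. The share of those genes past 1.5-fold is not given here, so the call has no background beside it. Under the spleen label low-dose Cybb was 0.33 higher (0.18 to 0.47), Ncf4 0.37 (0.16 to 0.58) and Cyba 0.19 (0.10 to 0.29). Low-dose Ncf1 there differed by 0.20 (-0.08 to 0.48).

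In B cell-like cells under the liver label the 5 members differed by -0.04 to 0.09 at the high dose, all with intervals spanning 0, and 0 of 5 passed 1.5-fold where 8.61% of 6762 genes did. Under the spleen label 4 members had 50 UMIs, none passed, and 19.2% of 928 genes did. At the low dose under the liver label Ncf4 differed by -0.45 (-0.73 to -0.18), Rac2 by -0.39 (-0.51 to -0.27) and Cyba by -0.23 (-0.35 to -0.12). Cluster 18, which held 149 low-dose cells, 2 vehicle cells and 3 high-dose cells, made up part of that low-dose group.

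Between the libraries, vehicle neutrophil-like cells differed little. The labelled-liver minus labelled-spleen difference was 0.20 for Cyba (0.14 to 0.25) and 0.15 for Ncf4 (0.06 to 0.23), and 0.05, -0.11 and 0.01 for Cybb, Ncf1 and Rac2, with intervals that spanned 0. Some differences were larger in the other groups. Neutrophil-like Cybb differed by 0.55 (0.47 to 0.64) at the low dose and by -0.16 (-0.26 to -0.07) at the high dose. Neutrophil-like Ncf1 differed by -0.40 (-0.52 to -0.27) at the high dose. In vehicle monocyte-like cells Cybb differed by -0.54 (-0.65 to -0.43), and in vehicle macrophage-like cells by -1.56 (-2.03 to -1.13). Macrophage-like Ncf1 differed in vehicle by -2.95 (-4.59 to -1.70) and Ncf4 by -2.89 (-4.04 to -1.94), from 5 and 9 UMIs under the liver label. The size in macrophage-like cells varied by group, with Cybb, Ncf1 and Ncf4 at -0.98, -1.23 and -2.36 at the low dose and at -2.09, -1.96 and -1.46 at the high dose. Each library is 1 preparation, so library and tissue cannot be told apart, and the macrophage-like classes came from different kinds of cluster.

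The other genes of the oxidase pathway were taken from 8 lists with 65 genes, of which 64 had a row. The counts of called genes stand beside the shares of all genes, 2.36% (liver label) and 6.75% (spleen label) at least 1.5-fold higher and 31.9% and 13.4% at least 1.5-fold lower. Of the core partners in neutrophil-like cells, Rac1 differed at the high dose by -0.24 (-0.34 to -0.15) under the liver label and by -0.13 (-0.32 to 0.07) under the spleen label. Cybc1, which encodes the chaperone of the membrane pair, was the 1 of 5 partners lower by 1.5-fold, at -0.76 (-1.10 to -0.44) under the liver label, and differed by -0.19 (-0.92 to 0.52) under the spleen label.

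**Figure D5:**
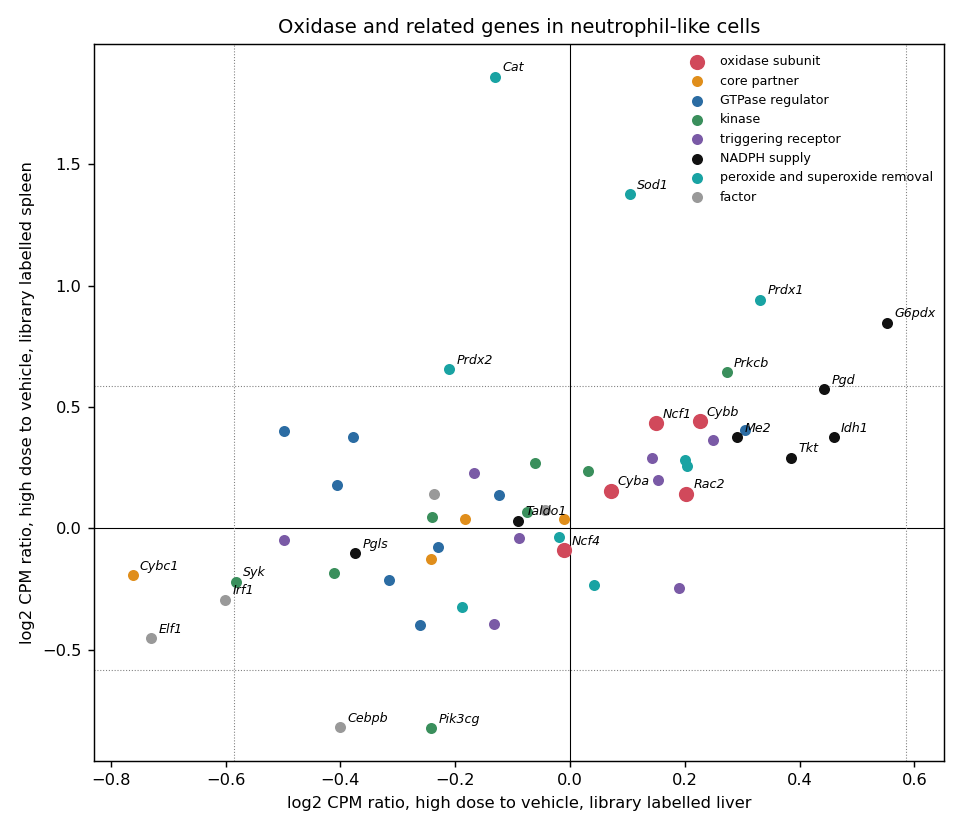
Log2 ratio of CPM, high dose to vehicle, in neutrophil-like cells under the liver label (horizontal axis) against that under the spleen label (vertical axis), 1 point per gene with at least 50 UMIs in both, coloured by list. The 5 members sit between -0.01 and 0.23 on the horizontal and between -0.09 and 0.44 on the vertical axis, and G6pdx and Pgd, which make NADPH, sit to the upper right.

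In the NADPH supply list, named for the substrate of the complex, 7 of 8 genes had 50 UMIs, with medians of 0.38 in both libraries. Not every gene of this list encodes an enzyme that itself makes NADPH. G6pdx, the entry enzyme of the pentose phosphate pathway, was higher by 0.55 (0.45 to 0.65) under the liver label and 0.85 (0.63 to 1.07) under the spleen label, and Pgd, the next NADPH-making step, by 0.44 and 0.57. Tkt, Me2 and Idh1 were higher by 0.29 to 0.46 in the 2 libraries, while Pgls differed by -0.37 and -0.10 and Taldo1 by -0.09 and 0.03. Of these, 0 of 7 passed 1.5-fold under the liver label and 1 of 7 (G6pdx) under the spleen label.

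Genes that remove superoxide and peroxide had medians of 0.04 and 0.28, with 0 of 9 and 4 of 9 at least 1.5-fold higher, the 4 being Sod1, Cat, Prdx1 and Prdx2, against 2.36% and 6.75% of all genes. In neutrophil-like cells under the spleen label the erythroid, hepatocyte and macrophage markers summed to 298, 312 and 201 CPM in vehicle. At the high dose they summed to 702, 600 and 388 CPM, and their part in the 4 calls was not tested. Of the triggering receptors, 0 of 8 passed in either library, with medians of 0.03 and 0.08, and Itgb2, the shared chain of the leukocyte integrins, was higher by 0.25 and 0.36. The kinases had medians of -0.16 and 0.06, with 0 of 8 passing under the liver label and, under the spleen label, Prkcb higher by 0.64 and Pik3cg lower, at -0.82. The GTPase regulators had medians of -0.26 and 0.16, with 0 of 9 and 0 of 8 passing.

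The transcription factors had medians of -0.50 and -0.29. Cebpa, Irf1 and Elf1, 3 of 6 tested, were at least 1.5-fold lower under the liver label, where 31.9% of all genes were, and Cebpb, 1 of 5 tested, under the spleen label, at -0.82 (-0.89 to -0.75), where 13.4% of all genes were. Spi1 differed by -0.04 (-0.11 to 0.02) and 0.07 (-0.07 to 0.22). None of the 7 other NADPH oxidase genes (such as Nox1 and Duox1) reached 50 UMIs, with at most 3 UMIs each.

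At the low dose few listed genes passed 1.5-fold in neutrophil-like cells. Prdx2, 1 of 9 tested genes that remove superoxide and peroxide, was lower under the liver label, where 7.13% of all genes were. The erythroid markers summed to 424 CPM in vehicle and 171 CPM at the low dose in these cells, and their part in the Prdx2 value was not tested. In the other library Cybc1 (1 of 4 core partners), Fpr1 (1 of 8 triggering receptors) and Sod2 (1 of 7 genes that remove superoxide and peroxide) were higher, where 4.25% of all genes were. The NADPH supply list had medians of -0.01 and -0.27, below its high-dose values in both libraries, with the vehicle cells shared by both comparisons.

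Across the 14 class and library combinations with enough vehicle cells, the genes whose log2 level was most like each member's were sought among 8108 genes. For Cybb these included Spi1 (Pearson's r = 0.947), Milr1, Plac8 and Ncf1. For Ncf1 they included Spi1 (0.947) and Cybb (0.912), then Gsn and Nfam1. Cyba was nearest to Arpc1b (0.965), a subunit of the actin-branching complex, followed by Rtn3, Arpc3, Arpc4 and Atp6v0b. Ncf4 was nearest to Chil3 (0.966) and Mcemp1 and Rac2 to Cd52 (0.955) and Ubb. Between members, Cybb and Ncf1 had r = 0.912, Ncf1 and Ncf4 0.895, and Ncf1 and Rac2 0.415. The 14 points share 2 libraries and their depth, so these values are a description.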

How the data were processed

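Both matrices hold UMI counts per gene and cell barcode, deposited by the authors as raw 10x Genomics counts with 3 hashtag rows beside the genes. The submitters' labels name Cell Ranger 6.0.0 and mm10, while the matrix headers name Cell Ranger 5.0.0, and hashtags were counted in the same matrices. The labels describe density-gradient leukocytes and the study's methods CD11b+ bead isolation, and which amounts the low and the high dose of these libraries were is not given in these sources. Nothing was normalised before deposit.

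Barcodes were assigned to a group by HTODemux (Seurat 5.3.0, quantile 0.99) on the hashtag rows, and those with no hashtag or more than 1 were set aside. Cells were normalised by SCTransform (0.4.2) and clustered on 30 components at resolution 0.8, without the members and the other listed oxidase-related genes among the variable genes. A cluster took a name when at least 3 markers of its list were raised at least 2-fold (log2 of 1, with 10 CPM added) and seen in 20% of its cells, with no other list leading its 10 leading genes. This naming rule was chosen after the data were seen. Doublets were taken out by hashtag only, and Scrublet (scanpy 1.11.5), tried as an alternative, marked 248 of 9591 and 1 of 4830 barcodes. The second number is too low for that caller to have worked.

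UMIs were then summed per library, class and group and divided by the sum of all genes (CPM). With 1 sample per group no test was made. Levels carry exact Poisson, ratios exact conditional binomial and shares exact Clopper-Pearson 95% intervals (scipy 1.17.1), which do not cover mouse or library variation. Ratios were taken for genes with at least 50 UMIs in both groups together, and past 1.5-fold counts as called. Each UMI was taken as 1 molecule. On simulated counts the intervals held the true ratio in 95.62% of genes for the high-dose neutrophil-like comparison under the liver label (7462 genes). Exact intervals are built to do so, so this checks their calculation and not the spread between mice or libraries.

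The members, the gene lists and the marker lists were chosen with earlier results of these data known. Genes named beyond the members are those of the lists, the 5 nearest genes of each member and the genes that lead a cluster. Gene positions come from GENCODE M21 (GRCm38, which is mm10). RefSeq sequences matched for Cybb, Cyba and Ncf1, and those of Ncf4 and Rac2 were not used here. Some genes that the rule for named genes covers are not reported here. Clec7a, the 1 listed gene without a row, was not analysed here. Alternatives were other hashtag calls, cell filters, resolutions, classes from marker UMIs, equal weight per cell and other totals.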

Additional observations from a re-analysis of the deposited data

Results flagged for a closer look

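Cyba in macrophage-like cells differed between high dose and vehicle in opposite directions in the 2 libraries, by -0.29 on the log2 scale under the liver label (interval -0.59 to -0.00, from 150 and 279 UMIs) and by 0.11 under the spleen label (0.03 to 0.20, from 4351 and 1418 UMIs). Each value is 1 pooled sample against another, and the difference between the libraries was not tested. Under the liver label the class was cluster 15, and under the spleen label it was clusters 4 and 14.

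Barcodes with no hashtag, which entered no comparison, also held members' UMIs. The 5 genes summed to 843 CPM (808 to 879.8, 2115 UMIs) in 540 such barcodes under the liver label and to 1271 CPM (1239 to 1304, 5935 UMIs) in 1627 barcodes under the spleen label. Barcodes with more than 1 hashtag held 3710.3 CPM over 616 barcodes and 3802 CPM over 215. No untreated control exists for these barcodes, and 3 UMIs, the limit that a count of 0 allows, correspond to at most 1.20 CPM in any of the 4 sets.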

How the results depend on the processing

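No paired analysis was possible because every group was 1 pooled sample per library, and for the same reason no sample could be left out. Of the values of the 5 genes for the high dose in neutrophil-like cells and for neutrophil-like minus B cell-like cells, 186 stayed within the interval of the value reported under another setting, 43 moved beyond it and 1 reversed. The counts include a setting that left the liver-label cells unchanged (progenitor-like clusters with Camp counted as neutrophil-like). A value with few UMIs has a wide interval and stays within it more easily, so the counts do not measure robustness. All values below are log2 differences, high dose first and then neutrophil-like minus B cell-like. Equal weight per cell gave Cybb 1.28, Ncf1 0.58, Cyba 0.20 and Rac2 0.34 under the liver label, and Cybb 0.99, Ncf1 0.72 and Rac2 0.26 under the spleen label, with Cybb 0.28, Cyba 1.44, Ncf1 1.53 and, under the spleen label, Cybb 0.66 against B cell-like cells. Resolution 0.4 gave Cybb 0.64, Ncf1 0.35 and Cyba 0.14 under the liver label, and 0.98, 1.85 and 1.42 against B cell-like cells. Within clusters weighted by vehicle cells, liver-label Cybb was 0.046, Rac2 0.10 and Ncf1 -0.055 (reversed), and spleen-label Cybb 0.63.

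Leaving the 20 most abundant genes out of the totals shifts all genes alike, by 0.13 for the high dose under the liver label and by 0.89 and 0.82 against B cell-like cells. It gave Cybb 0.36, Ncf1 0.28, Cyba 0.20, Ncf4 0.12 and Rac2 0.33 under the liver label. Against B cell-like cells it gave Cybb 2.41, Cyba 2.45, Ncf1 2.98, Ncf4 3.555 and Rac2 1.775 under the liver label and Cybb 2.03, Cyba 2.29, Ncf4 3.17 and Rac2 1.62 under the spleen label. Without ribosomal protein and mitochondrial UMIs, a setting added after the data were seen, the same comparison gave Cybb 0.98, Cyba 1.02, Ncf1 1.56, Ncf4 2.13 and Rac2 0.35, and Cybb 0.65, Cyba 0.91 and Rac2 0.24. Classes from marker UMIs alone gave Cyba 1.12 there under the spleen label.

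Of the other comparisons of members, 846 values stayed, 119 moved and 19 reversed, and these counts have the same limits. Cyba in neutrophil-like minus monocyte-like cells reversed to -0.024 (resolution 0.4), -0.15 (equal weight) and -0.21 (without ribosomal protein and mitochondrial UMIs) under the liver label. Under the spleen label it reversed to 0.075 (MULTIseqDemux), 0.028 (dominant hashtag), 0.038 (Scrublet), 0.092 (resolution 0.4), 0.0051 (marker UMIs alone), 0.59 (without the 20 genes) and 0.029 (progenitor-like clusters with Camp counted as neutrophil-like, added after the data were seen). In the same contrast Cybb reversed to 0.70 and 0.014 without the 20 genes, which moves all genes of the contrast alike, and liver-label Ncf4 to -0.10 without ribosomal protein and mitochondrial UMIs. Low-dose liver-label Cybb in neutrophil-like cells reversed to 0.13 (equal weight) and 0.042 (within clusters). Against macrophage-like cells under the liver label Cybb reversed to -0.34 (equal weight) and Cyba to -0.11 (marker UMIs alone), and spleen-label macrophage-like Cyba to -0.098 (high dose) and -0.060 (low dose) with marker UMIs alone. Apart from that change of scale, the cause was not tested for any of these. The count of genes past 1.5-fold in neutrophil-like cells under the liver label at the high dose, 176 higher and 2380 lower, was 46 and 1004 past 2-fold and 75 and 1068 with at least 200 UMIs, and depth limits the macrophage-like cells under the liver label, among others, where Ncf1 and Ncf4 had under 20 UMIs per group.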

Other observations

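Outside the classes compared, the 5 genes separated by lineage. T cell-like cells under the liver label held Cybb at 3.89, 8.37 and 6.09 CPM in vehicle, low dose and high dose and Ncf1 at 2.92, 5.58 and 7.87 CPM, while Rac2 stood at 731, 704 and 792 CPM and Cyba at 398, 345 and 428 CPM. NK cell-like cells of that library, 33 to 63 per group, held Rac2 at 1079 to 1245 CPM, a range that overlapped with that of neutrophil-like cells, with Cybb at 3.37 to 27.6 CPM. In the 41 high-dose cells named 4T1 tumor cell-like under the spleen label, Cyba was at 243 CPM and Rac2 at 4.91 CPM.

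T cell-like cells under the spleen label at the low dose held Cybb at 255 CPM (53 UMIs in 45 cells), against 16.6 CPM in vehicle (1 UMI in 20 cells) and 60.5 CPM at the high dose (19 UMIs in 52 cells). The neutrophil markers summed to 11093, 929 and 602 CPM in these cells at the low dose, in vehicle and at the high dose, and the macrophage markers to 568, 16.6 and 156 CPM in the same order. Their part in the Cybb values was not tested.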
